A study of Rattus norvegicus with 11 samples.

Results

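The miR-26 family was followed as 2 miRNAs, rno-miR-26a and rno-miR-26b (miR-26a and miR-26b from here on), chosen by their names without a star among the 340 miRNA names that both array designs of the series measured. Islets, the hormone-secreting cell clusters of the pancreas, came from female Sprague Dawley rats, and total RNA, 100 ng per sample, was hybridised to 1-colour Agilent miRNA arrays. The daughters fell into 2 groups by what their fathers had eaten. HFD daughters had fathers given pellets with 43% fat, and Control daughters had fathers given chow with 9% fat. In both groups the fathers were mated at 15 weeks with females on chow, and the daughters were weaned onto chow at 3 weeks. They were tested for glucose tolerance when 6 and 12 weeks old and for insulin tolerance when 11 weeks old, and their islets were taken when they were 13 weeks old. There were 6 Control and 5 HFD arrays, of which 4 Control and 4 HFD were of the first, smaller array design and 2 Control and 1 HFD of the second, larger one. Common fathers or litters among the daughters are not given in the labels, so p-values measure the spread between these samples. The comparison asks whether islet miRNAs of daughters differ with the paternal diet.

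miRNAs are short RNAs that guide a silencing complex to matching sites in mRNAs, mainly through the seed, bases 2 to 8 of the miRNA. miR-26 is made in most tissues, sits inside genes for small phosphatases of RNA polymerase II, and is known for holding back Ezh2, a histone methyltransferase, and Tet enzymes, which oxidise methylated DNA. In beta cells it has been counted among the miRNAs that keep insulin transcription up.

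The mature sequences are shown because the members carry the same seed and differ at few bases, so that they share predicted target sites and resemble each other as array targets. They are from RefSeq on build GRCr8, 5′ to 3′, with the seed in capitals, and the array's unstarred names were taken as the 5p arms.
miR-26a-5p: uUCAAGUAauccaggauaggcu
miR-26b-5p: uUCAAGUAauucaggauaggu
miR-26a-5p lies at chr8:127633063-127633084 on the plus strand and miR-26b-5p at chr9:83425723-83425743 on the plus strand. Both have the seed UCAAGUA, whose complement in a target reads UACUUGA, and among 693 mature miRNA names in the RefSeq table these 2 were the ones with that seed. Over the 21 positions both hold, 19 are identical. The substitutions from miR-26a to miR-26b are C11U and C21U, counted from 1 at the 5′ end, and miR-26a is 22 bases long against 21 for miR-26b.

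The precursors show where the other arm of each hairpin lies, since the arrays also probe that arm under the star names. Capitals mark the 5p and 3p mature arms.
Mir26a hairpin: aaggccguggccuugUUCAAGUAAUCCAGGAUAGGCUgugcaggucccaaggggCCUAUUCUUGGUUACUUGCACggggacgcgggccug
Mir26b hairpin: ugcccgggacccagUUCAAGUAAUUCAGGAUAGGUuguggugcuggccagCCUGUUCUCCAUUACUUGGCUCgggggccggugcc
In the GRCr8 gene table Mir26a lies within Ctdspl and Mir26b within Ctdsp1, each on the same strand as its host gene. Whether they lie in exons or introns was not analysed here, since that table gives gene bounds alone.

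Both members were bright and were detected on all 11 arrays. The scanner software's total signal for miR-26a ran from 574 on HFD 653 to 1007 on Control 613 within the first design, and read 2322 on Control 635, 4749 on Control 652 and 4567 on HFD 640 of the second. For miR-26b it ran from 416 on HFD 603 to 675 on HFD 644 within the first design, and read 1234, 2736 and 2404 on the same second-design arrays. Control 652 and HFD 640 were thus the brightest arrays for both members. Because arrays differ in overall brightness, the values that follow are scaled. From each array's log2 signals the mean log2 signal of 83 other miRNAs, all detected on every array, was taken away.

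The islet label was set against marker miRNAs. miR-375 and miR-7a, defining miRNAs of endocrine islet cells, were detected on all 11 arrays. The islet list of 4 names also held miR-7b, detected on all 11, and miR-184, detected on 0, and its summed scaled signal ran from 11593 to 15713 in Control and from 10926 to 13526 in HFD on the first design. In these sums a name that was not detected counts at no less than the floor of 10.2. The counts of members detected are over all 11 arrays of both designs. Of markers of other cells, the liver and muscle lists had 0 members detected. On the first design the acinar sum spread from 32.5 to 698 in Control and from 120.5 to 676 in HFD, with 2 of 2 members detected on some array. The leukocyte sum ran from 77.3 to 85.1 in Control and from 74.7 to 399 in HFD, with 4 of 5 detected. The endothelial sum was 511 to 628 in Control and 466 to 803 in HFD, with 3 of 3 detected. The fibroblast and smooth muscle sum was 299 to 478 and 302 to 610, with 5 of 5 detected. Of these lists miR-217 (acinar), miR-126* (endothelial) and miR-145 (fibroblast and smooth muscle) lay at the floor on every first-design array. Of the red blood cell list miR-451 was detected on the second design and miR-144 on 0 arrays. HFD 653 stood apart, with 105 of the 340 shared miRNAs detected, against 138 to 157 on the other first-design arrays, and with a spread of 38.2 among its negative control spots against 6.38 to 7.53. The fitted differences are therefore also given without it. The part of these in the values of miR-26 was not tested.

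After scaling, miR-26a had log2 signals of 10.56 on Control 602, 10.73 on Control 613, 10.74 on Control 615 and 10.61 on Control 639. On the first-design HFD arrays it had 10.71 for HFD 603, 10.58 for HFD 607, 10.62 for HFD 644 and 10.31 for HFD 653. HFD 653 was the lowest of the 8, and the other 3 HFD arrays lay within the Control range, so the groups overlap. On the second design miR-26a had 11.75 and 11.72 on Control 635 and 652 and 11.63 on HFD 640, the lowest of the 3.

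miR-26b had log2 signals of 10.15, 10.03, 9.93 and 10.08 on Control 602, 613, 615 and 639, and 9.99, 9.97, 10.05 and 9.90 on HFD 603, 607, 644 and 653. The lowest array was again HFD 653, and the groups overlap here too. On the second design it had 10.84 and 10.93 on Control 635 and 652 and 10.71 on HFD 640, again the lowest. HFD 640 lay below both Control arrays for both members, and it did so for 23.7% of the 152 miRNAs tested. In the first design the groups did not overlap for 0.658% of those 152, and neither member was among them.

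**Figure D1:**
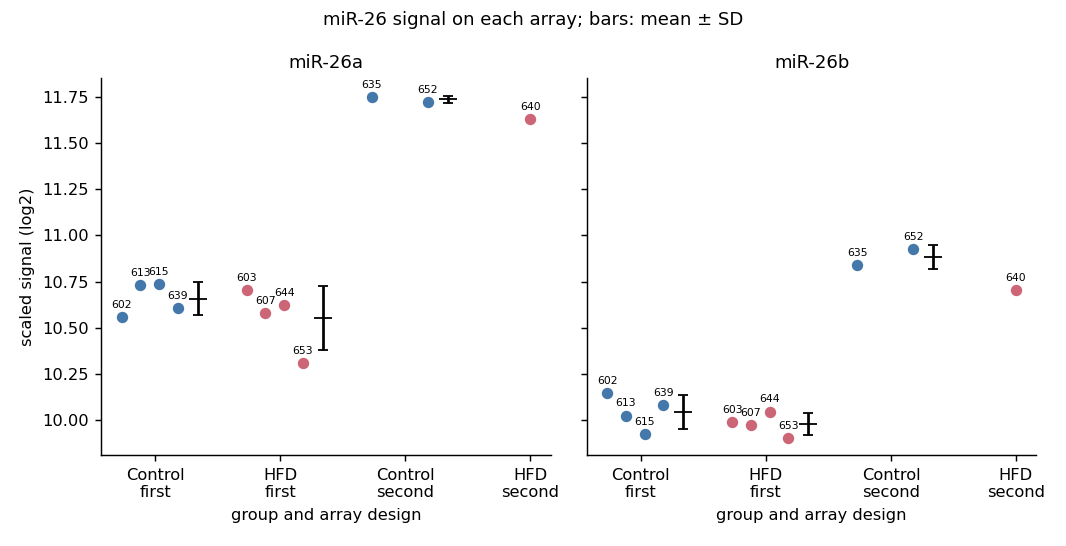
Scaled signal (log2, vertical axis) of miR-26a and miR-26b on each of the 11 arrays, by group and array design, with sample numbers beside the points and black bars for mean ± SD where a group has more than 1 array. Within a design the groups overlap or lie close, while the second design sits higher than the first, for miR-26a in Control by 1.08 and for miR-26b by 0.84.

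Neither member passed the test between HFD and Control. On the first design the mean log2 signal of miR-26a was 10.66 ± 0.091 for Control arrays and 10.55 ± 0.17 for HFD arrays (SD, n = 4 each). For miR-26b the means were 10.05 ± 0.093 and 9.98 ± 0.059. The fitted difference over all 11 arrays, HFD minus Control with array design as a block, was -0.10 ± 0.094 (SE) for miR-26a, in log2 units, and its 95% interval ran from -0.31 to 0.10. That is 0.930-fold, with an interval of 0.805 to 1.07. For miR-26b it was -0.095 ± 0.079 (SE), with an interval of -0.27 to 0.081, or 0.936-fold with an interval of 0.829 to 1.06. With limma and Benjamini-Hochberg adjustment over 152 miRNAs the adjusted p was 0.958 for both. Called were 0 of 2 members and 0% of the 152, while 2 of the 152, or 1.32%, had an unadjusted p under 0.05 and neither was a member. The 2-sided exact permutation test of the diet labels within array design (210 splits) gave p = 0.171 for miR-26a and p = 0.0857 for miR-26b.

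These intervals are narrow for this series. The standard error of miR-26b was the second smallest of 152, with 1 miRNA below it, and that of miR-26a had 17 below it, against a median of 0.17. Around group and design means, miR-26b had a residual SD of 0.076, number 2 from the smallest among 85 miRNAs detected on every array, and miR-26a 0.12, number 17, against a median of 0.20. Both differences lie below 0, as do those of 51.3% of the 152, whose median was -0.011. In islet RNA, fewer cells holding a miRNA and less of it per cell cannot be told apart.

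**Figure D2:**
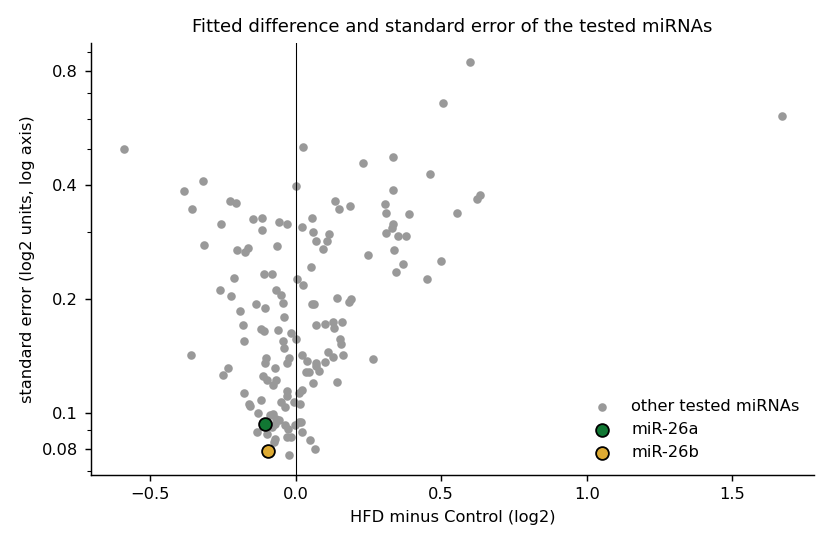
Fitted difference between HFD and Control (horizontal axis, log2) against its standard error (vertical axis, log2 units on a log axis) for the 152 miRNAs tested. miR-26a (green, -0.10) and miR-26b (yellow, -0.095) lie near the bottom, among the miRNAs measured with the least spread, and left of 0.

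Both designs placed the members below 0. For miR-26a, HFD minus Control was -0.10 on the first design and -0.11 on the second. For miR-26b the differences were -0.067 and -0.18. The interaction of diet and array design was -0.0012 ± 0.23 (SE) for miR-26a and -0.11 ± 0.20 for miR-26b, with limma adjusted p of 0.999 and 0.998. The intervals of these interactions, -0.53 to 0.52 and -0.55 to 0.33, are wide, and HFD 640, with no second HFD array of its design, was taken to vary like the other arrays.

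The sign of both differences turned with the scaling between arrays, and with the removal of no single array. Among the 85 miRNAs detected on every array, miR-26b was number 22 by signal on each of the 8 first-design arrays and number 15 on each of the 3 second-design arrays. Such a fixed place on all 8 first-design arrays was held by 1 other miRNA, miR-24, while the median miRNA moved over 10 places. A fixed place was more common on the 3 second-design arrays. There 8 of the 85, miR-26b included, held one, and the median miRNA moved over 2 places. miR-26a moved between places 14 and 19 on the first design and 8 and 10 on the second. Places reflect each miRNA's probes as well as its amount. Place 22 of 85 is exactly where the 75th percentile falls, so scaling by that percentile, usual for these arrays, sets miR-26b to 9.99 on every first-design array. For that reason the mean of the 83 other miRNAs was used instead.

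The neighbours of miR-26b in this order show how close the places are. On 6 of the 8 first-design arrays the next brighter miRNA was miR-99a, which on Control 639 lay 0.0040 above miR-26b and on Control 615 lay 0.39 above it. On 5 of the 8 the next dimmer was miR-127, which lay between 0.27 and 0.46 below.

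With both members left out of the 75th percentile, the difference was 0.028 for miR-26a and 0.037 for miR-26b, above 0. Over all shared names that percentile gave -0.25 and -0.24, and with no scaling the differences were 0.049 and 0.058. Those scalings also move the other miRNAs. The median over all tested miRNAs shifted by 0.12, -0.13 and 0.17 in the same order, and by 0.14 in the deposited tables, -0.17 with the mean over all shared names and -0.10 with the RMA-like summary. The count of miRNAs below 0, 78 of 152 in the setting reported, was 28, 116 and 18 under the first 3 of these. Relative to the median miRNA, miR-26a lay at -0.093 in the setting reported and at -0.081, -0.10 and -0.11 under those 3, and miR-26b at -0.083, and at -0.071, -0.093 and -0.097. With the RMA-like summary both lay above the median miRNA, by 0.068 and 0.053. Quantile normalisation sets values by place in the order, so the fixed places of miR-26b gave it a difference of 0 by construction. The median miRNA was at -0.074 there. That miR-26b lay above it by 0.074 thus says nothing of miR-26b, while miR-26a lay at -0.037 from the median.

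**Figure D3:**
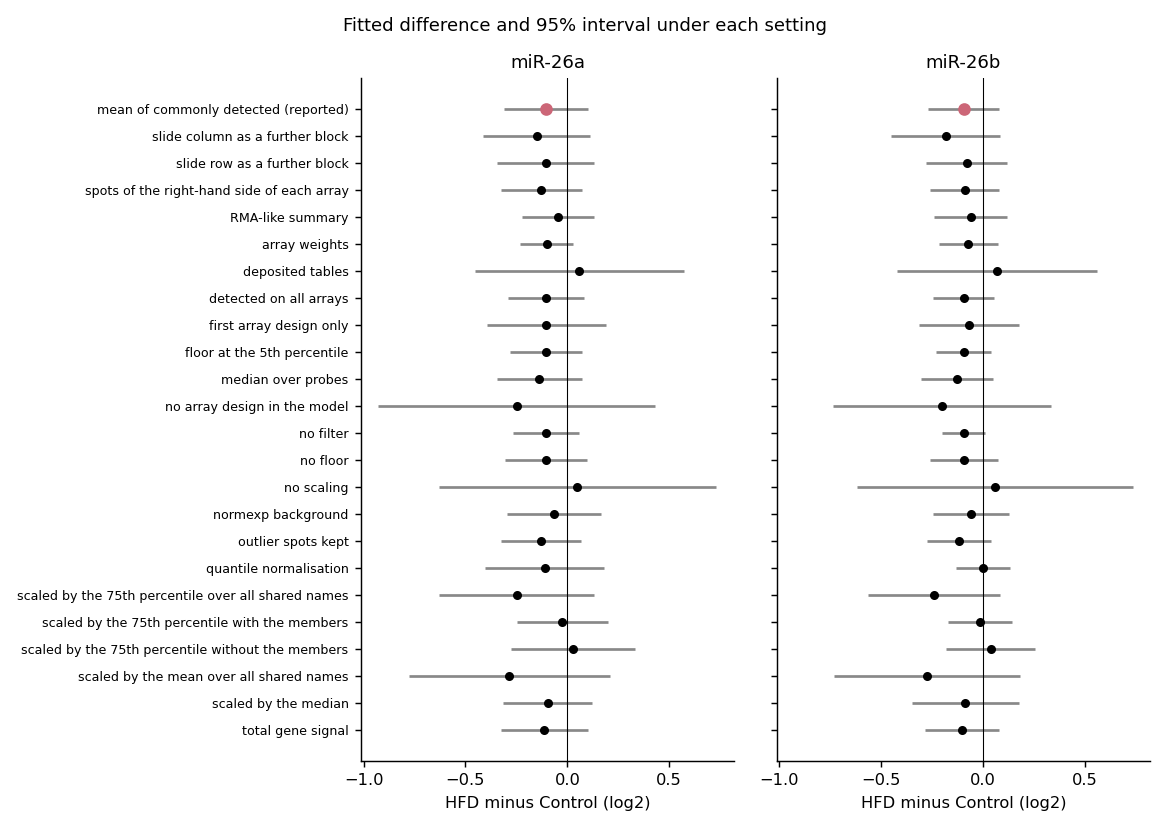
Fitted difference between HFD and Control (horizontal axis, log2; points) with its 95% interval (lines) for miR-26a and miR-26b under the setting reported (red) and 23 alternatives. Each interval includes 0, and the point estimates run from -0.28 to 0.059 for miR-26a and from -0.27 to 0.069 for miR-26b.

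The difference between the members within an array is the same whatever single factor scales that array. In log2 signal, miR-26a minus miR-26b was 0.41, 0.70, 0.81 and 0.52 on Control 602, 613, 615 and 639, and 0.72, 0.61, 0.57 and 0.40 on HFD 603, 607, 644 and 653. On the second design it was 0.91 and 0.80 on Control 635 and 652 and 0.93 on HFD 640. The lowest values, 0.41 and 0.40, were on Control 602 and HFD 653, 1 array of each group. The size of this quantity rests on the probes, so its change between arrays is what can be read. It differed between HFD and Control by -0.0099 ± 0.086 (SE), with a 95% interval of -0.21 to 0.19 (2-sided exact permutation p = 0.900). The first design gave -0.037 and the second 0.072. An unequal change in the signals of miR-26a and miR-26b was thus not detected, and the interval allows one of up to about 0.21 on the log2 scale. Whether the probes of 1 member also bind the other was not analysed, so this bound holds for the signals.

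How closely the members followed each other over the 8 first-design arrays varied with the scaling. In the setting reported, Pearson's r was 0.20 (exact permutation p = 0.639) and Spearman's rho -0.071 (exact permutation p = 0.882). Without HFD 653 and Control 615, the 2 arrays farthest from the median of miR-26a, r was -0.49. Unscaled signals gave r = 0.90 (exact permutation p = 0.0036), rho = 0.83 (exact permutation p = 0.015) and r = 0.91 without HFD 653 and Control 602, but these share the brightness of the array. The 75th percentile without the members gave r = 0.81 (exact permutation p = 0.019) and rho = 0.55 (exact permutation p = 0.171), and r was -0.032 without Control 602 and HFD 653, so it rests on them. The median gave r = 0.53 (exact permutation p = 0.182) and rho = 0.48 (exact permutation p = 0.243), with r = 0.13 without the same 2 arrays. These are 4 scalings of 1 relation, and their p-values are not adjusted.

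Each member had 2 probes with 10 spots each, and the same 4 probes were on both designs. All 440 spots were well above background and none was saturated. The probes gave like differences between HFD and Control. For miR-26a they were -0.091 ± 0.067 (SE; 2-sided exact permutation p = 0.210) and -0.11 ± 0.077 (2-sided exact permutation p = 0.152). For miR-26b they were -0.11 ± 0.058 (2-sided exact permutation p = 0.119) and -0.087 ± 0.053 (2-sided exact permutation p = 0.157). These standard errors are from ordinary least squares, while limma's for the members also draw on the spread of the other miRNAs. The sizes of the 2 kinds therefore cannot be compared. All 4 probes lay below 0 in both designs. From the first design to the second, Control arrays read higher by 1.38 and 0.90 at the probes A_26_P00001225 and A_26_P00002571 of miR-26a, and by 0.89 and 0.79 at those of miR-26b. The step was thus unequal for the probes of miR-26a, a difference that was not tested. Design, slide, scan and software version coincide and cannot be told apart.

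In the setting reported, miR-26a read lowest of the first design on the 2 arrays of slide column 1, though an effect of position was not tested. The file headers place Control 602 and HFD 653 in column 1 of the first slide, HFD 603 and 644 in column 2, Control 639 and HFD 607 in column 3, and Control 613 and 615 in column 4. In columns 1 and 3, which hold 1 array of each group, HFD minus Control was -0.25 and -0.024 for miR-26a, -0.24 and -0.11 for miR-26b and -0.0075 and 0.085 for miR-26a minus miR-26b. In rows 1 and 2 of that slide, with 2 arrays of each group, it was -0.0012 and -0.21 for miR-26a and -0.11 and -0.029 for miR-26b. With the slide column as a further block the fitted difference was -0.15 ± 0.11 (SE) for miR-26a and -0.18 ± 0.11 for miR-26b. That block took a column number as the same on both slides. Columns 2 and 4 hold 1 group each, so position and diet cannot be told apart there. The diet difference in the fit with that block thus rests on columns 1 and 3, column 1 being the pair Control 602 and HFD 653.

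**Figure D4:**
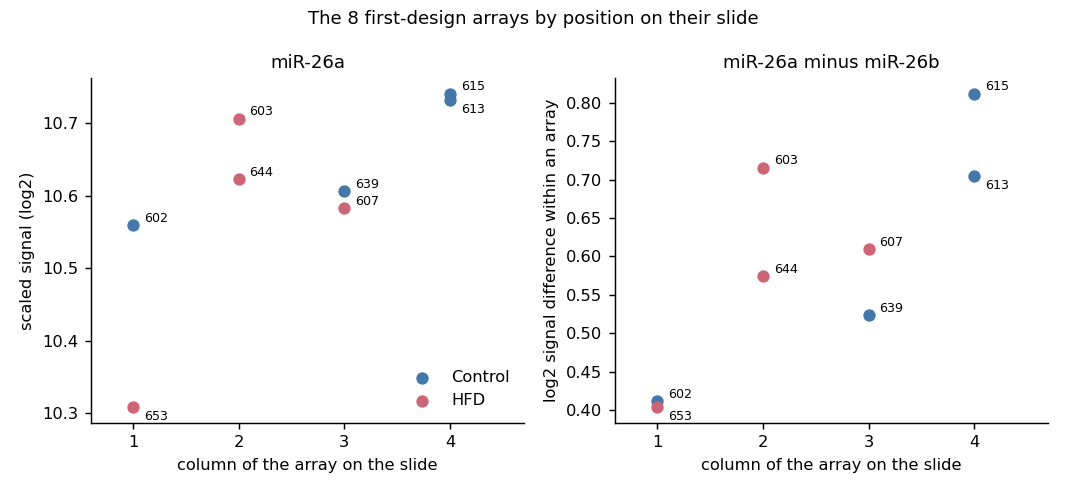
The 8 first-design arrays by their column on the slide (horizontal axis), with the scaled signal of miR-26a (log2, left) and the within-array log2 difference of miR-26a and miR-26b (right), Control in blue and HFD in red. The 2 arrays of column 1 are lowest in both panels, and the 2 Control arrays of column 4 are highest in the left panel, while on the right HFD 603 (0.72) lies between them.

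The spots of the column 1 arrays were uneven. Among replicate spots of a miR-26a probe the coefficient of variation was 32.3% to 39.8% on Control 602 and HFD 653, 3.87% to 20.5% on the other 6 first-design arrays and 0.534% to 5.51% on the second design. For miR-26b it was 7.32% to 21.8%, 3.14% to 13.5% and 1.83% to 7.49%. Spots with an outlier flag were left out of these values. The 0.534% was that of A_26_P00001225 on Control 652, where 6 of 10 spots were used. On Control 602, spots of miR-26a in grid columns from 42 up, the right-hand side of the array, read 0.79 higher on the log2 scale than those to the left, and on HFD 653 they read 0.86 higher. For miR-26b the same difference was 0.47 and 0.52. On the other 9 arrays it lay between -0.21 and -0.016 for miR-26a and between -0.21 and 0.067 for miR-26b. By this split the step was larger for miR-26a on both column 1 arrays. The correlation of spot signal with grid column was 0.47 and 0.59 for miR-26a and 0.50 and 0.67 for miR-26b. The unevenness was not particular to miR-26. Over all probes with a mean signal above 200, the median coefficient of variation was 24.5% on Control 602 and 22.3% on HFD 653. It was 12.1% to 17.1% on the other 6 first-design arrays. These medians hold all spots, flagged ones included, so they are not the same measure as the values of miR-26 above.

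With spots of the right-hand side alone, miR-26a read 10.71 on Control 602 and 10.53 on HFD 653, against 10.56 and 10.31 with all spots. Its difference from miR-26b then read 0.61 and 0.63, within the 0.40 to 0.83 of the other 6 first-design arrays. The lowest first-design arrays were then those of column 3, Control 639 and HFD 607. They had 10.49 and 10.42 for miR-26a, and 0.40 and 0.43 for its difference from miR-26b. The fitted difference between HFD and Control was -0.13 ± 0.088 (SE) for miR-26a and -0.089 ± 0.076 for miR-26b with these spots. Without HFD 653 the difference of miR-26a was -0.046 ± 0.077 (SE), smaller in size than with all arrays. That of miR-26b was -0.080 ± 0.079 without HFD 653. The difference of miR-26a minus miR-26b was 0.035 ± 0.083 without it (2-sided exact permutation p = 0.724), on the other side of 0.

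**Figure D5:**
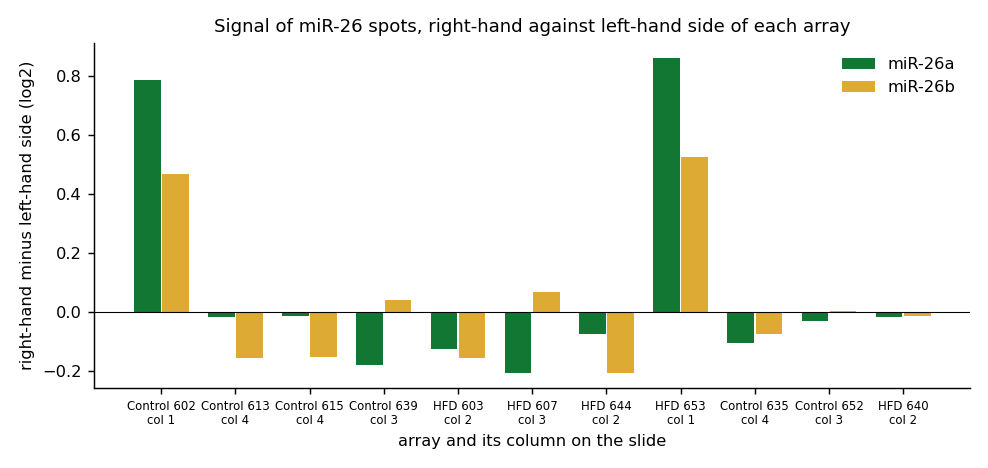
Mean log2 signal of miR-26a (green) and miR-26b (yellow) spots on the right-hand side of each array minus the left-hand side (vertical axis), by array with its column on the slide (horizontal axis). Control 602 and HFD 653 reach 0.79 and 0.86 for miR-26a, while the other 9 arrays stay between -0.21 and 0.067 for either member.

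The passenger arms were not detected. miR-26b*, the 3p arm, was on both designs and was detected on 0 of 11 arrays, with 0 of 160 first-design spots and 0 of 60 second-design spots well above background. miR-26a* was on the second design and was detected on 0 of 3 arrays, with 0 of 60 spots well above background.

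The miRNAs whose pattern over the 11 arrays was most like each member, by Pearson's r of values centred within array design, were not the same for both. For miR-26a they were miR-30e (r = 0.80), miR-151 (0.80), miR-125b-5p (0.79), miR-16 (0.78) and miR-30b-5p (0.77). These rest largely on HFD 653, without which r was 0.51, 0.32, 0.43, 0.29 and 0.51. For miR-26b they were let-7c (0.73), let-7a (0.71), let-7f (0.70), let-7e (0.69) and miR-106b (0.69), or 0.79, 0.75, 0.80, 0.73 and 0.63 without HFD 653. Of these, let-7c, let-7a, let-7f and let-7e belong to the let-7 family. miR-26b was number 33 in the order of likeness to miR-26a, and miR-26a number 22 in that to miR-26b (r = 0.27), of 84 miRNAs whose median r was 0.12 and 0.050. The points share their arrays and their scaling factor.

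Other miRNAs tied to the same processes passed no test either. Over all 152 miRNAs tested 0% passed, so the counts below set no list apart. Of 5 names of miRNAs counted with miR-26 as keeping insulin transcription up, 3 were on both designs and tested, and 0 passed in either direction. Their differences were -0.0023 for miR-24, -0.59 ± 0.50 (SE) for miR-148b-3p and 0.057 for miR-182, with a median of -0.0023 against -0.011 over all tested. Of 4 miRNAs that, like miR-26a, target Ezh2, miR-101a and miR-101b were tested and read -0.14 and -0.11, a median of -0.12, and 0 passed, while miR-138 and miR-124 were detected on 0 arrays. Of 4 that target Tet enzymes, all were tested, and 0 passed. They read 0.079 for miR-22, 0.013 for miR-29a, -0.0069 for miR-29b and -0.030 for miR-29c, with a median of 0.0030. The lists were not independent of earlier results of these data and no set was tested.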

How the data were processed

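Per the labels' protocols, Cy3-labelled RNA was hybridised to 1-colour arrays. The deposited spot intensity, from Agilent Feature Extraction 10.5.1.1 (first design) and 10.7.3.1 (second) per the file headers, is background-subtracted and not normalised between arrays. The deposited log2 tables equal log2 of the software's total signal plus 50 in the first design and log2 of that signal in the second, for both members on all arrays; their column medians were 5.68 to 5.83 and 6.52 to 6.89, with no centring and no ratio direction involved. The submitters' processing notes list RMA and Partek; their role and version are not given in the sources used here.

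Spots with an outlier flag were left out (32 of 440 for the members), spots were averaged per probe, and probes summed per miRNA. Each array was scaled to the mean log2 signal of 83 miRNAs detected on all arrays, members excluded. Values below a floor of 10.2 (the 1st percentile of detected values) were raised to it; no member was. limma 3.58.1 in R 4.3.3 fitted diet with array design as a block over 152 miRNAs detected on at least 5 arrays, 2-sided, at an adjusted p of 0.05. Standard errors of single probes and of the within-array difference came from ordinary least squares. The number of arrays limits the precision. The normexp alternative used median spot and background signals, since the files hold no mean spot signal. Besides the members, their probes and star strands, the text names the 5 miRNAs most like each member by Pearson's r and the 3 pathway lists. Members, lists and the main scaling were chosen with earlier results of these data known; the slide-position and right-hand-side alternatives were chosen after seeing the data.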

Additional observations from a re-analysis of the deposited data

Results flagged for a closer look

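Dixon's criterion was applied to 14 groups of 4 first-design arrays (both members, their 4 probes and the within-array difference, in each group), of which 1 met it, where chance flags about 1 in 20. It was the miR-26b probe A_26_P00001229 in HFD, where the gap of HFD 653 to the nearest array was 0.937 of the range. That probe read 8.99 on HFD 653, against 9.18 to 9.19 on HFD 603, 607 and 644.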

How the results depend on the processing

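Each of the 2 differences was recomputed under 35 alternatives and passed in none of those with a test, with adjusted p from 0.652 to 1 for miR-26a and from 0.582 to 1 for miR-26b. Not all of these could move the differences. Changes of the floor or of the detection filter left both as they were and altered the standard errors alone. The 75th percentile with the members holds miR-26b constant on the first design. The sign turned for miR-26a and miR-26b in the deposited tables (0.059 and 0.069), with no scaling (0.049 and 0.058) and with the 75th percentile without the members (0.028 and 0.037). It stayed below 0 under the other alternatives, except under quantile normalisation, where miR-26b had 0 because its place in the order is fixed within each design. Leaving out 1 array gave -0.14 to -0.046 for miR-26a, -0.13 to -0.067 for miR-26b and -0.055 to 0.041 for the within-array difference, with the other sign without Control 613, Control 615 or HFD 653. That difference also turned with the slide column as a block (0.033), with the RMA-like summary (0.015) and within the second design, untested (0.072). Its smallest exact permutation p, 0.386, came with quantile normalisation, where it is the difference of miR-26a alone. Causes were not tested. limma called 0 miRNAs throughout, leaving out each array included, apart from 1 with no scaling, miR-150, and 0 to 11 had an unadjusted p under 0.05. No paired analysis was possible because the groups share no replicate numbers. All spots of the members were well above background. The second design holds 1 HFD array, so it gives no spread of its own for HFD.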
